A study of Mus musculus with 4 samples.

Results

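The nuclear genes of oxidative phosphorylation were examined in perivascular adipose tissue (PVAT) of the mouse femoral artery after wire injury. The genes were taken by symbol and not by any measured value. A gene was a member if its symbol begins with *Nduf*, *Uqcr*, *Cox4*, *Cox5*, *Cox6*, *Cox7*, *Cox8* or *Atp5*, or if it is *Sdha*, *Sdhb*, *Sdhc*, *Sdhd* or *Cyc1*. This gave 90 genes, and leaving out *Cox7a1* and *Cox8b*, the isoforms typical of muscle and brown fat, left 88 of the 12661 genes in the table. By the complex that each protein belongs to, 36 members encode subunits of complex I, 4 of complex II, 9 of complex III, 13 of complex IV and 15 of complex V. The other 11 are 8 assembly factors of complex I, *Cox7a2l* and *Ndufa4l2*, which are relatives of complex IV subunits, and *Atp5s*, which is related to complex V. *Ndufa4* was counted in complex IV, where its protein is now placed, despite its name.

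All animals were ovariectomized female mice, wild type, of strain C57BL/6 and 11 weeks of age. The injury group had a wire of 0.38 mm passed into the femoral artery and the sham group had a sham operation. RNA came from whole outer tissue around the artery, mainly PVAT, taken 48 h later, with 2 libraries in each group. Nothing in the sources used here says whether a library came from a separate animal, so the p-values measure only the spread between libraries, which may be technical. The values are on a log-like scale whose base is not stated in the sources used here, and each gene is centred on its own reference, so they are given in deposited units, show no abundance, and are not turned into fold changes. Read depth is not known for any library. All 12 pan-adipocyte marker genes looked for, among them *Adipoq* and *Plin1*, were listed in the table, but centred values cannot show how abundant they were. In whole tissue, more cells of a type and more RNA per cell cannot be told apart.

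Oxidative phosphorylation takes place in the inner mitochondrial membrane. Complex I oxidises NADH and complex II oxidises succinate, and both hand electrons to coenzyme Q. Complex III passes them to cytochrome c, and complex IV passes them on to oxygen. Complexes I, III and IV pump protons, and complex V, the ATP synthase, lets the protons flow back to make ATP. Brown and beige adipocytes are rich in mitochondria, and the uncoupling protein UCP1 lets their respiratory chain run with little ATP synthesis. Brown fat is known for a low content of ATP synthase relative to its respiratory chain, which goes with low expression of *Atp5g1*, a gene for the c-subunit of the proton-conducting ring. Complexes I, III, IV and V also hold subunits encoded by mitochondrial DNA. Of 13 symbols of such genes looked for, 0 matched the table, so they were not analysed here.

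The nuclear genes of the respiratory chain were broadly higher after injury, and those of the ATP synthase had smaller differences and included the lowest one. Injury values were higher than sham values on average in 83 of the 88 members, where 50.9% of all genes had a difference above 0. In 78 members both injury libraries lay above both sham libraries, which was true of 31.6% of all genes. The opposite order, found in 30.3% of all genes, was seen in 1 member, *Atp5g1*, and the groups overlapped in the other 9. By limma with Benjamini-Hochberg adjustment over all 12661 genes, 17 members were called higher (adjusted p under 0.05), which is 19.3% of the members where 3.76% of all genes were called higher. No member was called lower, where 3.67% of all genes were, and in either direction 7.43% of all genes were called. At an unadjusted p under 0.05, 62 members were higher and 1 was lower, where 14.8% of all genes were higher and 14.8% lower. The median difference of the members was 0.57 deposited units, and the median of all genes was 0.01. A difference of at least 0.5 was reached by 52 members, and by 11.8% of all genes.

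The difference was a shift of most of the set and not of a few genes. The median of the 88 members was -0.17 in sham 1, -0.07 in sham 2, 0.41 in injury 1 and 0.52 in injury 2, while the median over all genes stayed within 0.01 of 0 in each library. The middle part of the members, from the 25th to the 75th percentile, had differences of 0.35 to 0.70. The libraries within a group also differed. Sham 2 lay above sham 1 in 73 members, with a median gap of 0.14, and injury 2 lay above injury 1 in 71, with a median gap of 0.13. The 17 calls rest on all 4 libraries. Without sham 1 no member was called (34 were higher at an unadjusted p under 0.05), and without sham 2 none was (55 higher), and in both fits none of all 12661 genes was called higher. Without injury 1 the count was 1 (1.14% of the members), where 1.43% of all genes were called higher. Without injury 2 it was 9 (10.2%), where 7.45% of all genes were called higher, so in neither of these fits did the share of the members stand far from that of all genes. Removing the trend of each library with transcript length and GC content, an alternative chosen after seeing the data, left 9 calls (3.59% of all genes were called higher) and a median difference of 0.45. Adding the replicate number to the fit (a replicate block), though no label pairs the libraries, left 5 calls (5.68%), where 3.01% of all genes were called higher. Those 5 were *Ndufab1*, *Ndufa5*, *Cox5a*, *Cox6a1* and *Cox7c*, which also kept their calls after trend removal. With unmoderated variances no gene of the 12661 was called, while 45 members were higher at an unadjusted p under 0.05.

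**Figure D1:**
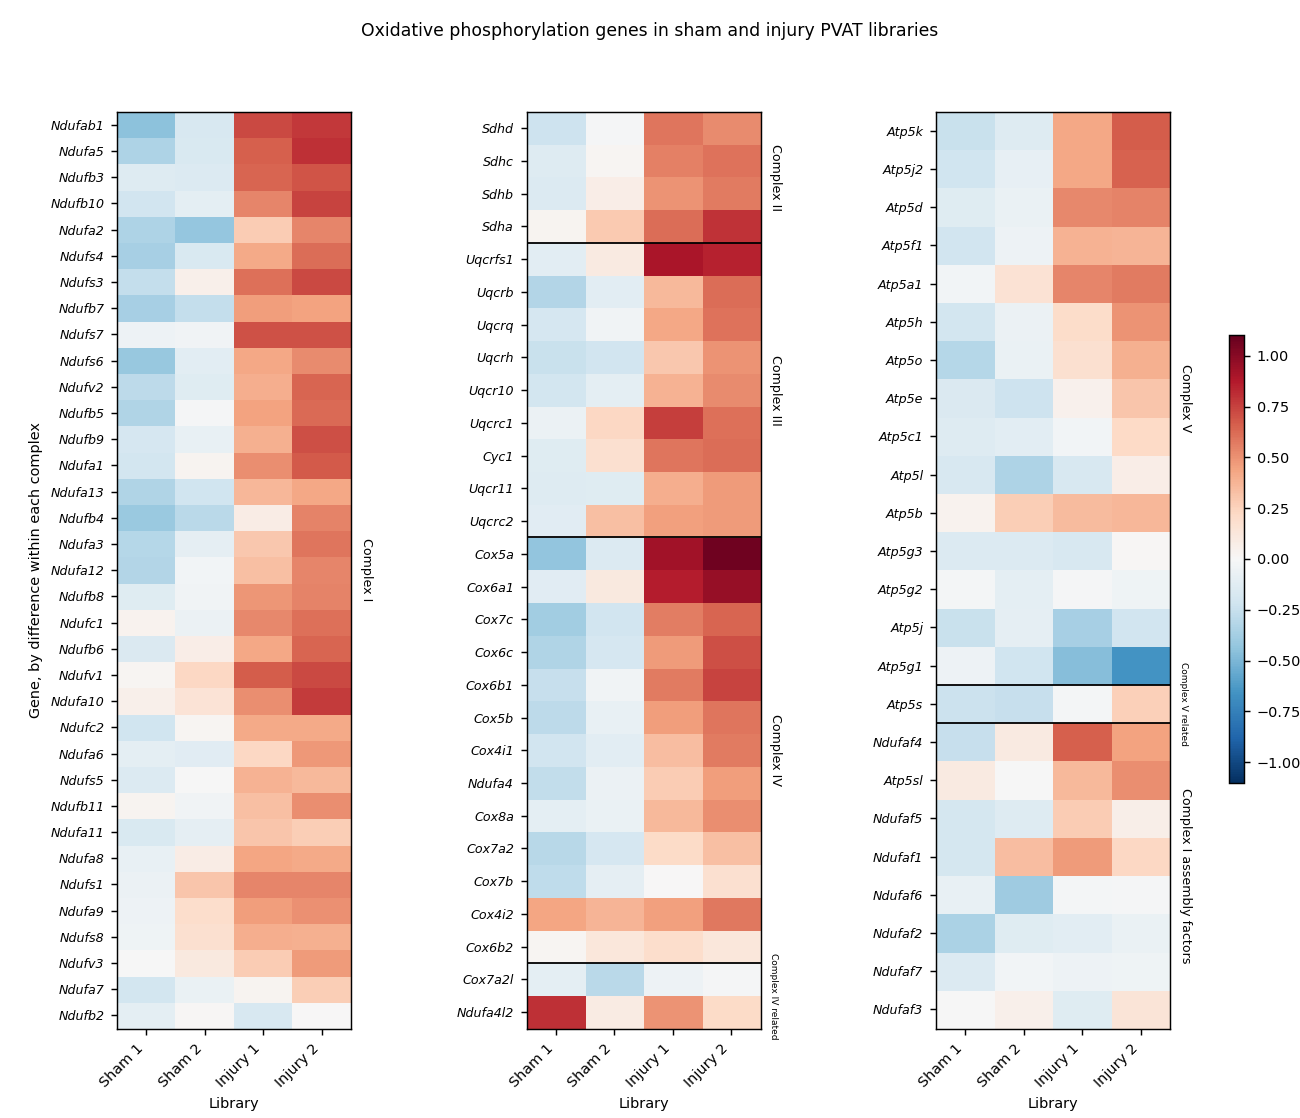
Deposited values of all but 1 of the 88 members in each library, on a colour scale in deposited units from blue (below the reference of the gene) to red (above it), with genes grouped by complex and ordered by difference within each. Most genes of complexes I to IV have redder injury than sham columns, *Ndufb2* being an exception, with *Cox5a* at 0.93 and 1.07 in the injury libraries, while the c-subunit gene *Atp5g1* at the foot of complex V turns to blue, at -0.46 and -0.66.

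The ends of the range were held by *Cox5a*, with the highest difference of 1.29, and *Atp5g1*, with the lowest of -0.42. *Cox5a* lies on chromosome 9 from 57369039 to 57380231 and *Atp5g1* on chromosome 11 from 95930166 to 95936984, both in mm9. Promoters of respiratory chain genes are known for sites of NRF1, of ETS factors such as GABP, of the estrogen-related receptors (ERR) and of YY1. The windows from 250 bases before to 50 bases after the start, taken from RefSeq on the later assembly GRCm38.p6, were searched on both strands for GCGCA followed by any base and GCGC (NRF1), CCGGAAG (ETS), AAGGTCA (ERR) and AAGATGGCG (YY1). A window was found for 70 of the 88 members, 75 windows in all. The NRF1 letters were in 26.7% of the member windows (20 of 75) and in 4.6% of all 32851 windows. The ETS letters were in 22.7% and 8.86%, the ERR letters in 10.7% and 4.72%, and the YY1 letters in 9.33% and 1.4%. Among the 16 windows of called members, 3 held the NRF1 letters, 3 the ETS letters, none the ERR letters and 2 the YY1 letters. The 3 with the NRF1 letters include both windows of *Ndufa5*, which overlap and hold the same site. Among the 16 windows of complex V genes the counts were 6, 5, 4 and 2.

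The promoter windows of 4 genes are shown, 5′ to 3′ on the strand of the gene, with matches to the 4 motifs in capitals. *Cox5a* (chr9:57520982-57521281, plus strand) and *Atp5g1* (chr11:96075582-96075881, minus strand) are the ends of the range, and neither window held any of the 4 strings. *Cox6a1* (chr5:115348909-115349208, minus strand), the second highest complex IV gene, held the NRF1 letters at 2 places and the ETS letters in reverse. *Atp5k* (chr5:108434350-108434649, minus strand), the complex V gene with the highest difference, held the NRF1 letters, the ETS letters in reverse and the ERR letters.
Cox5a: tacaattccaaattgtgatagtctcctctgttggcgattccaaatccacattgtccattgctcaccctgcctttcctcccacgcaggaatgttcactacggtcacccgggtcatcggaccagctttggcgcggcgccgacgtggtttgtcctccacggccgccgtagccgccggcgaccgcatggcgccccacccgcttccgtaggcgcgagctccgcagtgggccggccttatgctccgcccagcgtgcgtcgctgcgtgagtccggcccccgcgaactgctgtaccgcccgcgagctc
Cox6a1: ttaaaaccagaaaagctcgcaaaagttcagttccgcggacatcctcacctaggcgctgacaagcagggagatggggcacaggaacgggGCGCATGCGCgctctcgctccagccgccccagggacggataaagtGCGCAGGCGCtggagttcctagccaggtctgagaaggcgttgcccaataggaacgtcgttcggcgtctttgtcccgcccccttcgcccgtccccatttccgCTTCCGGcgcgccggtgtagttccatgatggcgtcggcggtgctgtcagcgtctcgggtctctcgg
Atp5k: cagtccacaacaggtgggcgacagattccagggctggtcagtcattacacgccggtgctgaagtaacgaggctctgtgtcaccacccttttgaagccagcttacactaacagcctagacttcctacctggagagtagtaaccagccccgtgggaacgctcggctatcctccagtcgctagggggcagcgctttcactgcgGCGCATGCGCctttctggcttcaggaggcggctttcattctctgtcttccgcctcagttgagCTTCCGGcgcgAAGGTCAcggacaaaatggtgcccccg
Atp5g1: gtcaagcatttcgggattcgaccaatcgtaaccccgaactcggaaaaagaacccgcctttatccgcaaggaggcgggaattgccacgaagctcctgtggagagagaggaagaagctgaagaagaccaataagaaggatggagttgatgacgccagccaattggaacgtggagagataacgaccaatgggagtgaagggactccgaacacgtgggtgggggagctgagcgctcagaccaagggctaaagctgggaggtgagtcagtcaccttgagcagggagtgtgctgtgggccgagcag

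Complex I, the NADH dehydrogenase and the largest complex of the chain, had a median difference of 0.63 over its 36 genes. Of these, 10 were called higher and 35 had both injury libraries above both sham libraries. The exception was *Ndufb2*, a small subunit of the membrane arm, which read -0.11 and 0.01 in the sham libraries and -0.18 and 0.01 in the injury libraries. The 7 core genes, which encode the subunits that carry electrons from NADH to coenzyme Q, had a median difference of 0.73. *Ndufs7*, whose protein holds the iron-sulfur cluster next to the coenzyme Q site, read -0.06 and -0.04 in sham and 0.70 and 0.70 in injury. This was the tightest agreement within groups among the core genes, and it gave a difference of 0.75 ± 0.13 (SE) with an adjusted p of 0.0368 from limma. With a replicate block the call was lost (adjusted p = 0.0618). *Ndufs3* and *Ndufv2* had differences of 0.77 and 0.73 and stayed just outside the threshold, with adjusted p-values of 0.0543 and 0.0540. *Ndufv1*, which binds NADH and flavin, differed by 0.57 (adjusted p = 0.0732). *Ndufs1* (0.41) and *Ndufs8* (0.33), both iron-sulfur subunits, had the smallest differences of the core, and sham 2 was well above sham 1 in each.

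The accessory subunits of complex I surround this core and are needed for its assembly and stability. The 13 genes named *Ndufa* or *Ndufab1* had a median of 0.61, the 10 *Ndufb* genes of the membrane arm 0.68, and the other 6 accessory genes 0.55. *Ndufab1*, the mitochondrial acyl carrier protein, which also serves fatty acid and lipoic acid synthesis, read -0.45 and -0.18 in sham and 0.73 and 0.78 in injury. Its difference of 1.07 ± 0.15 (SE) was the highest in complex I (adjusted p = 0.0295). *Ndufa5* followed, with -0.34 and -0.17 in sham and 0.66 and 0.80 in injury, a difference of 0.98 (adjusted p = 0.0306). In both genes the gap between the groups was several times the gap between libraries of a group. The other called accessory genes were *Ndufb3* (0.81), *Ndufa2* (0.79), *Ndufb10* (0.79), *Ndufs4* (0.78), *Ndufb7* (0.76) and *Ndufa13* (0.67), with adjusted p-values from 0.0327 to 0.0483. All of these lost the call with a replicate block, and only *Ndufb3* and *Ndufb7* kept it after removal of the length and GC trend. *Ndufs4* is the subunit whose loss causes a Leigh-like disease in mice, and *Ndufa13* is also known as the cell death regulator GRIM-19. Of the accessory genes that were not called, *Ndufs6* had the highest difference (0.73, adjusted p = 0.0549). Below it only *Ndufa7* (0.29), *Ndufv3* (0.32) and *Ndufb2* (-0.04) lay under 0.4.

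Complex II, the succinate dehydrogenase, also works in the citric acid cycle and is the only complex encoded wholly in the nucleus. None of its 4 genes was called, but they lay close together, with differences from 0.54 to 0.68 and adjusted p-values from 0.0545 for *Sdhd* to 0.0970 for *Sdha*. All 4 had an unadjusted p under 0.05 and groups that did not overlap. *Sdhd*, a membrane anchor, read -0.23 and -0.01 in sham and 0.59 and 0.52 in injury. *Sdhc*, the other anchor, read -0.14 and 0.02 in sham and 0.55 and 0.60 in injury. *Sdhb*, the iron-sulfur subunit, read -0.15 and 0.07 in sham and 0.50 and 0.57 in injury. *Sdha*, the flavoprotein that oxidises succinate, read 0.03 and 0.29 in sham and 0.62 and 0.79 in injury.

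Complex III, the cytochrome bc1 complex, had a median difference of 0.61 over 9 genes, all with both injury libraries above both sham libraries. *Uqcrfs1*, the Rieske iron-sulfur protein that takes electrons from coenzyme Q, was the 1 gene called. It read -0.11 and 0.10 in sham and 0.90 and 0.85 in injury, a difference of 0.88 ± 0.15 (SE; adjusted p = 0.0339). This call was lost with a replicate block (adjusted p = 0.0530). *Cyc1*, the cytochrome c1 that receives those electrons, read -0.13 and 0.18 in sham and 0.59 and 0.61 in injury (difference 0.58, adjusted p = 0.0872). The core proteins *Uqcrc1* and *Uqcrc2*, which carry no electrons, differed by 0.60 and 0.35. *Uqcrc2* had the widest spread in sham, -0.12 and 0.33, against 0.45 and 0.46 in injury. The 5 small subunits *Uqcrb*, *Uqcrq*, *Uqcrh*, *Uqcr10* and *Uqcr11* lay between 0.57 and 0.70, with adjusted p-values from 0.0600 to 0.0620.

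Complex IV, the cytochrome c oxidase, has its catalytic centre in subunits encoded by mitochondrial DNA, and the nuclear subunits surround them. The 13 nuclear genes had a median difference of 0.62, 12 had groups that did not overlap and 5 were called higher. *Cox5a*, the highest of the 88 members, read -0.43 and -0.15 in sham and 0.93 and 1.07 in injury, a difference of 1.29 ± 0.16 (SE; adjusted p = 0.0285) that lies at the 97.3rd percentile of all genes. *Cox6a1* read -0.13 and 0.11 in sham and 0.86 and 0.96 in injury (0.92, adjusted p = 0.0330). *Cox7c* read -0.38 and -0.21 in sham and 0.56 and 0.64 in injury (0.90, adjusted p = 0.0319). *Cox6c* (0.85, adjusted p = 0.0409) and *Cox6b1* (0.80, adjusted p = 0.0447) were the other called genes. Both lost the call with a replicate block and after removal of the length and GC trend. *Cox5b*, a zinc-binding subunit, missed the threshold narrowly with a difference of 0.71 and an adjusted p of 0.0519. *Cox4i1*, *Ndufa4*, *Cox8a* and *Cox7a2* followed with 0.62, 0.54, 0.53 and 0.51, and *Cox7b* with 0.27.

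Several complex IV subunits exist as isoforms of different tissues, and the isoforms had unlike differences. *Cox4i2*, the isoform of lung and of low oxygen, read 0.44 and 0.37 in sham and 0.45 and 0.58 in injury, a difference of 0.11 (adjusted p = 0.631), where the general isoform *Cox4i1* read -0.21 and -0.11 in sham and 0.34 and 0.57 in injury (adjusted p = 0.0664). Within each library *Cox4i1* minus *Cox4i2* was -0.64 and -0.48 in sham and -0.11 and -0.01 in injury. *Cox6b2*, known as the testis isoform, differed by 0.08 (adjusted p = 0.722). The muscle and brown fat isoforms left out of the set stood beside these values. *Cox7a1* read 1.17 and 1.49 in sham and 2.23 and 2.24 in injury (0.91, adjusted p = 0.0387), while *Cox7a2*, the general isoform, read -0.31 and -0.18 in sham and 0.21 and 0.33 in injury (0.51, adjusted p = 0.0825). *Cox8b* differed by 0.78 (adjusted p = 0.0368) and *Cox8a* by 0.53 (adjusted p = 0.0778). *Ndufa4l2*, a relative of *Ndufa4* known to be induced by low oxygen, read 0.80 and 0.09 in sham and 0.50 and 0.21 in injury, and its groups overlapped. *Cox7a2l*, which helps to join complexes III and IV into supercomplexes, differed by 0.17 (adjusted p = 0.485). None of these differences between isoforms was tested.

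**Figure D2:**
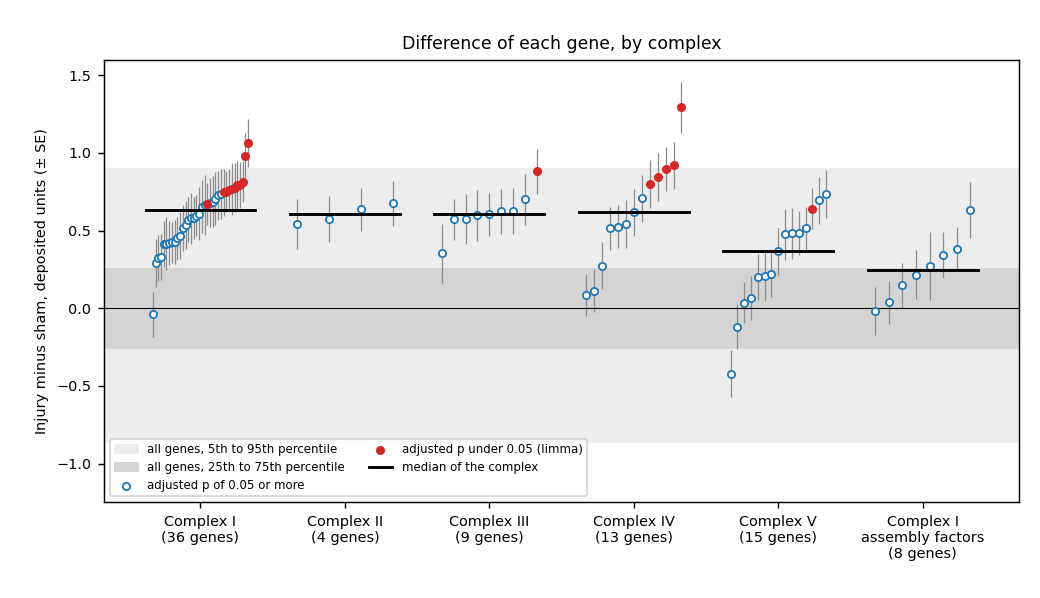
Difference of each gene (injury minus sham, deposited units, with the standard error from limma as a vertical line), by complex, with the median of each complex as a black bar and called genes as filled red points. The grey bands span the 5th to 95th percentile (-0.86 to 0.90) and the 25th to 75th percentile (-0.26 to 0.25) of all genes, and complex V and the assembly factors reach down to or below 0 where complexes I to IV, apart from *Ndufb2*, do not.

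Complex V held *Atp5g1* and *Atp5j*, the lowest of the subunit genes of all complexes. Its 15 genes ran from -0.42 to 0.74 with a median of 0.37, 11 had both injury libraries above both sham libraries, and 1 was called. In the F1 part, where ATP is made, *Atp5d* read -0.13 and -0.07 in sham and 0.53 and 0.55 in injury, a difference of 0.64 ± 0.13 (SE; adjusted p = 0.0498). This call was lost with a replicate block (adjusted p = 0.0805) and after removal of the length and GC trend (adjusted p = 0.0575). Calls in complexes I and IV were lost in the same fits. *Atp5a1*, the alpha subunit, read -0.03 and 0.16 in sham and 0.53 and 0.57 in injury (0.48, adjusted p = 0.0955). *Atp5b*, the beta subunit that holds the catalytic sites, read 0.04 and 0.27 in sham and 0.35 and 0.37 in injury (0.20, adjusted p = 0.422), and *Atp5c1*, the rotating gamma subunit, read -0.14 and -0.11 in sham and -0.03 and 0.22 in injury (0.22, adjusted p = 0.382). *Atp5e*, the epsilon subunit, differed by 0.37 (adjusted p = 0.186).

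The membrane part and stalk of complex V held both the highest and the lowest of its genes. *Atp5k*, subunit e of the dimer interface, read -0.24 and -0.14 in sham and 0.42 and 0.66 in injury, a difference of 0.74 just outside the threshold (adjusted p = 0.0501). *Atp5j2*, subunit f, differed by 0.69 (adjusted p = 0.0544). The stalk genes *Atp5f1*, *Atp5h* and *Atp5o* differed by 0.51, 0.48 and 0.48, while *Atp5j*, the stalk coupling factor 6, read -0.24 and -0.10 in sham and -0.36 and -0.21 in injury (-0.12, adjusted p = 0.628). *Atp5l*, subunit g, differed by 0.21 (adjusted p = 0.435).

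*Atp5g1*, *Atp5g2* and *Atp5g3* encode the same mature c-subunit with different import sequences, and none of the 3 was higher in injury beyond its spread. *Atp5g1* read -0.06 and -0.22 in sham and -0.46 and -0.66 in injury. Its difference of -0.42 ± 0.15 (SE) had an unadjusted p of 0.0349 and an adjusted p of 0.140 from limma, so it was not called. It was the only member whose injury libraries both lay below both sham libraries, and leaving out any library in turn gave a difference between -0.52 and -0.33. *Atp5g2* read -0.02 and -0.11 in sham and -0.01 and -0.05 in injury (0.04, adjusted p = 0.879). *Atp5g3* read -0.15 and -0.15 in sham and -0.18 and 0.02 in injury (0.07, adjusted p = 0.793). Within each library *Atp5d* minus *Atp5g1* was -0.08 and 0.15 in sham and 0.996 and 1.21 in injury. These are the called complex V gene and the lowest member, picked by their values, so this gap adds nothing to their separate differences. The coding sequence of *Atp5g1* has 1 other stretch of the genome at 99.8% identity and that of *Atp5g2* has 3, so how reads were shared with these copies is uncertain.

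**Figure D3:**
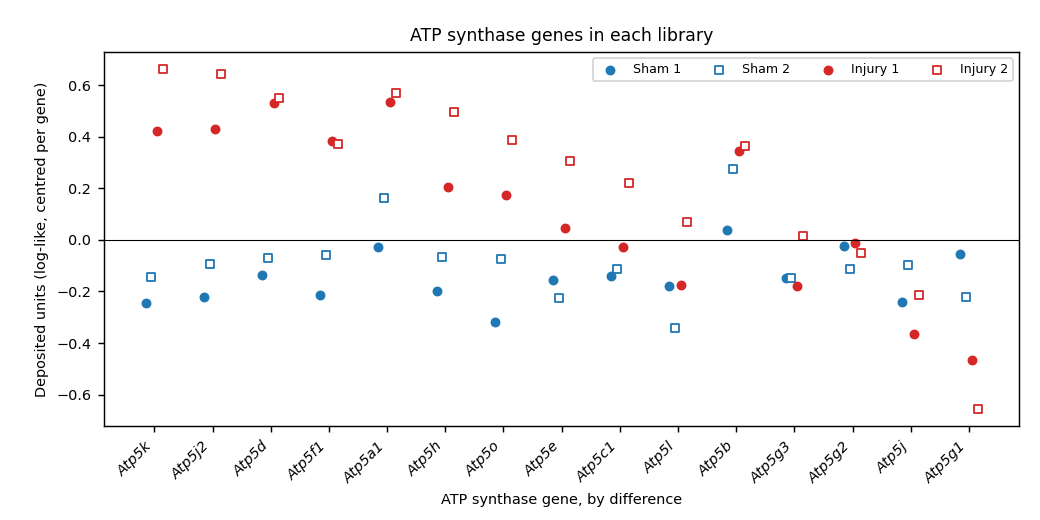
Deposited value of each of the 15 ATP synthase genes in each library, ordered by difference from left to right, with sham libraries in blue and injury libraries in red. The red points stand clear of the blue points on the left (*Atp5k*, 0.42 and 0.66 against -0.24 and -0.14), mix with them around *Atp5g3* and *Atp5g2*, and fall below them for *Atp5g1*.

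The complexes fell into an order of medians in which complexes I to IV were close together and complex V was lower. The medians were 0.63 for complex I, 0.60 for complex II, 0.61 for complex III and 0.62 for complex IV, and these 4 did not differ beyond the shifts of about 0.1 that leaving out a library caused. Complex V had 0.37. Over the 62 subunit genes of complexes I to IV, 60 had both injury libraries above both sham libraries and 16 were called. The median of those 62 genes minus the median of complex V was -0.03 and 0.06 in the sham libraries and 0.27 and 0.21 in the injury libraries. Both injury libraries lay above both sham libraries in this measure. That order was also found in 31.6% of all single genes, and the opposite order in 30.3%. No test was made of the measure, since genes are not replicates. The median of complex V moved with the libraries and the processing. It was 0.24 without injury 2, 0.50 without injury 1 and 0.22 after removal of the length and GC trend.

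The 8 assembly factors of complex I in the set had a median difference of 0.24, and none was called by limma, where 2 had an unadjusted p under 0.05. *Ndufaf4* had the highest difference and read -0.25 and 0.10 in sham and 0.66 and 0.44 in injury (0.63, adjusted p = 0.0899). *Atp5sl*, named after the ATP synthase but known to assemble complex I, differed by 0.38 (adjusted p = 0.150). *Ndufaf5*, *Ndufaf1*, *Ndufaf6* and *Ndufaf2* lay between 0.15 and 0.34, and *Ndufaf7* (0.04) and *Ndufaf3* (-0.02) were near 0. *Atp5s*, known as coupling factor B, differed by 0.37 (adjusted p = 0.192).

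Other genes of the pathway were taken from lists of assembly factors of all 5 complexes, electron carriers and coenzyme Q synthesis. Of 66 symbols, some of them older names of a listed gene, 60 were in the table, 8 were called higher and none lower, and the median difference was 0.27. The 8 are 13.3% of the list, where 3.76% of all genes were called higher. At an unadjusted p under 0.05, 18 were higher, against 14.8% of all genes, and none was lower. The 6 listed genes of complex III assembly had a median of 0.45, with none called and 3 higher at an unadjusted p under 0.05. Genes of complex IV assembly included the highest values. *Cox10*, which makes the heme O precursor of the heme in complex IV, read -0.50 and -0.23 in sham and 0.90 and 0.82 in injury (1.23, adjusted p = 0.0285). *Cox17*, the copper chaperone of complex IV, read -0.31 and -0.15 in sham and 0.83 and 0.78 in injury (1.03, adjusted p = 0.0291). *Coa5* (0.84, adjusted p = 0.0325) and *Lrpprc* (0.74, adjusted p = 0.0472), which stabilises mitochondrial messenger RNA, were also called, but the median of the 22 complex IV factors listed was 0.25. In coenzyme Q synthesis, *Adck3* read -0.08 and 0.38 in sham and 1.34 and 1.36 in injury (1.20, adjusted p = 0.0323), *Coq7* differed by 0.87 (adjusted p = 0.0352) and *Coq10a* by 0.69 (adjusted p = 0.0462), while *Coq4* differed by -0.34 (adjusted p = 0.170). *Cycs*, cytochrome c itself, differed by 0.71 (adjusted p = 0.0642). In complex V assembly, *Atpaf2* differed by 0.75 (adjusted p = 0.0494) and *Atpaf1* by -0.20, and *Atpif1*, the inhibitor of the ATPase, by -0.07 (adjusted p = 0.786). Leaving out any library other than injury 2 took all 8 calls away, and without injury 2 there were 5.

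Among regulators of these genes, *Esrra* was the 1 called. Of 16 symbols 13 were listed, and the 1 call is 7.69% of them, where 3.76% of all genes were called higher. None was called lower, where 3.67% of all genes were. At an unadjusted p under 0.05, 3 were higher and 1 lower, where 14.8% of all genes were higher and 14.8% lower. The median difference of the regulators was 0.14. *Esrra*, the estrogen-related receptor alpha that drives mitochondrial genes, read -0.35 and -0.06 in sham and 0.84 and 0.68 in injury (0.97, adjusted p = 0.0346). *Ppargc1a*, the coactivator PGC-1 alpha, read 1.30 and 0.89 in sham and 1.64 and 1.26 in injury, with groups that overlapped (0.36, adjusted p = 0.329). *Ppara* differed by 1.05, but the injury libraries stood far apart at 0.94 and 2.04 (adjusted p = 0.128). *Tfb2m* differed by 0.53 (adjusted p = 0.0991), and *Tfam*, which packages mitochondrial DNA and helps to transcribe it, by 0.29 (adjusted p = 0.248). *Nrf1* (0.03), *Gabpa* (-0.13) and *Yy1* (-0.07) had small differences. Both injury libraries lay above both sham libraries in 6 of the 13 regulators and below in 2, where 31.6% and 30.3% of all genes had these orders. *Gabpb2* differed by -0.37 (adjusted p = 0.144).

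Marker genes of several cell types differed in the same comparison. For the counts that follow, both injury libraries lay above both sham libraries in 31.6% of all genes and below in 30.3%. Of all genes 3.76% were called higher and 3.67% lower, and 14.8% were higher and 14.8% lower at an unadjusted p under 0.05. Of the 12 brown adipocyte markers listed, *Cox7a1* and *Cox8b* among them, 10 had both injury libraries above both sham libraries and 8 were called higher. *Prdm16*, a transcriptional regulator of brown and beige fat, lay lower in both injury libraries, at 0.66 and 0.18 in sham and 0.11 and -0.17 in injury, and was not called. The brown adipocyte markers had library medians of 0.61 and 0.89 in sham and 1.72 and 1.75 in injury, and a median difference of 1.11. Pan-adipocyte markers had library medians of 0.24 and 0.34 in sham and -0.15 and 0.29 in injury, and 6 of 12 lay lower in both injury libraries, of which *Plin1* was called. Of 14 skeletal muscle markers 9 were listed, 5 lay lower in both injury libraries and 2 higher, none was called either way, and library medians were 0.63 and -0.08 in sham and -0.22 and -0.40 in injury. At an unadjusted p under 0.05, 2 of those muscle markers were higher and 4 lower. All 10 macrophage markers were higher in both injury libraries, with 6 called and medians of -1.20 and -1.07 in sham and 0.59 and -0.14 in injury. The median difference of 6 neutrophil markers was 1.87, with library medians of -1.40 and -0.97 in sham and 1.27 and 0.27 in injury. The 7 smooth muscle markers were all lower in both injury libraries, with 5 called and a median difference of -2.18. Their library medians were 1.72 and 1.03 in sham and -1.55 and -0.21 in injury, so the injury libraries stood far apart. The median differences of endothelial, Schwann cell and fibroblast markers were -0.73, -0.66 and -0.71. The part of each of these cell types in the higher values of the respiratory chain genes was not tested.

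**Figure D4:**
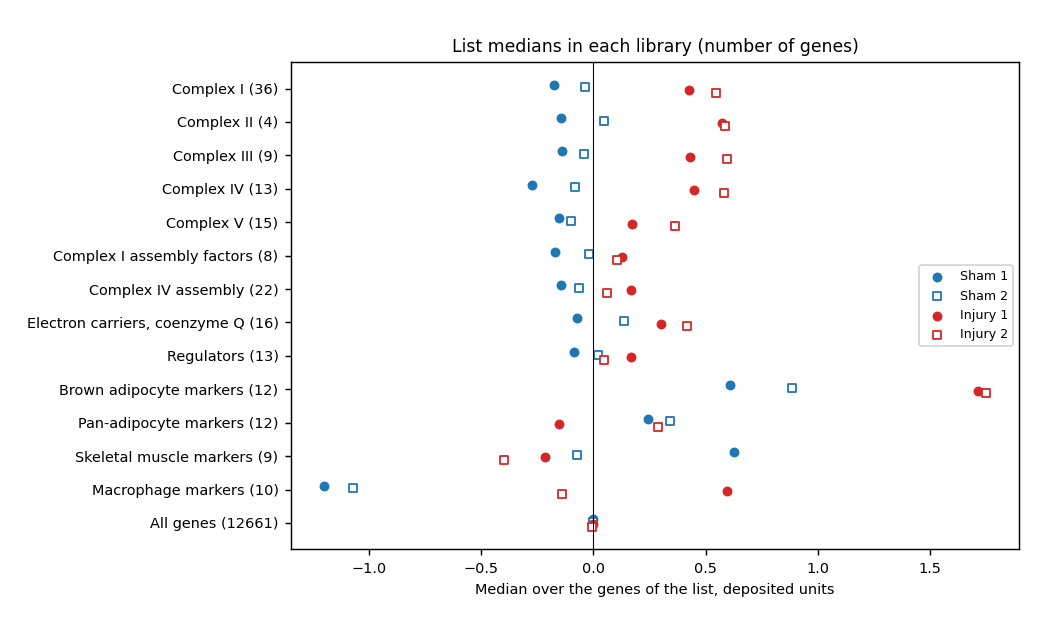
Median over the genes of each list in each library (deposited units, number of genes in brackets), with sham libraries in blue, injury libraries in red, circles for library 1 and squares for library 2. Complexes I to IV shift together by about 0.6, complex V and the assembly lists by less, and brown adipocyte and macrophage markers by more, while the medians of all genes coincide at 0.

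Many members are short genes, and some have near-identical copies elsewhere in the genome. The median transcript length was 960 bases over the 85 members with a known length and 3021 bases over all genes. Genes under 1000 bases that are not members, 597 in number, had a median difference of 0.12, where the 46 members under 1000 bases had 0.59 and the 39 longer members had 0.57. A copy at 95% identity or more over at least 150 bases of the coding sequence was found for 23 members, most for *Atp5l* with 7, *Atp5h* and *Cox7c* with 4 each, and *Uqcrb* and *Atp5g2* with 3 each. Members with a copy had a median difference of 0.57 and the 62 without one also had 0.57. The members lay on 19 chromosomes.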

How the data were processed

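Outer tissue of the femoral artery was profiled by bulk RNA-seq, with 2 sham and 2 injury libraries. Per the study's methods, the authors made stranded mRNA libraries from 480 ng of total RNA, and per the submitters' processing notes the tools were FastQC 0.11.8, Cutadapt 1.18, Trimmomatic 0.39, STAR 2.6.0a, featureCounts and DESeq2 1.28.0 in R 3.6.0, with mm9. The values the authors deposited are signed scores, not counts, from -2.27 to 6.45, on a log-like scale and centred per gene. The step that made them and the filter on genes are not given in the sources used here. Depth is unknown, so no interval or detection limit is given, and precision comes only from the spread of 2 libraries.

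The authors' count test could not be applied to scores, so limma 3.58.1 in R 4.3.3 was fitted to all 12661 genes with group as the only term (3.48 prior degrees of freedom), with Benjamini-Hochberg adjustment over all genes and a threshold of 0.05. No filter on low values was applied. With 2 against 2 libraries an exact permutation test cannot go below p = 0.333, so none was used. The fit was also run on simulated data, and the outcome of that run is not given here. The members, the lists and the tests were chosen with earlier results of these data known. Genes named were all called members, the catalytic and electron-carrying core, isoform families, the highest and lowest member of each complex, and members below 0, and further genes were named after their values were seen. The values of 1 complex I gene are not reported here, though it is part of the counts and medians. Coordinates and lengths come from GENCODE on NCBIM37, the assembly of mm9 (11682 genes and 85 members matched), and promoter windows from RefSeq on GRCm38.p6. Copies were sought with blastn 2.17.0. Other steps ran in Python 3.11.15 (numpy 2.4.6, pandas 2.3.3, matplotlib 3.10.9). Alternatives were a replicate block, quantile normalization, scaled or median-centred columns, a robust variance prior, unmoderated variances, identical genes counted once, a threshold of 0.1, leaving out each library in turn, other memberships of complex IV and, added after seeing the data, removal of the length and GC trend in 10 bins.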

Additional observations from a re-analysis of the deposited data

How the results depend on the processing

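The direction of the set did not depend on the processing, while the number of genes past the threshold did. Under quantile normalization, scaled columns, median-centred columns and trend removal, 72 to 78 members had both injury libraries above both sham libraries, where 31.5% to 31.7% of all genes did. With a library left out the count was 80 or 81, but the share of all genes rose too, to between 39.9% and 42.4%. Over all these settings 80 to 85 members had differences above 0. The 17 called members became 53 at a threshold of 0.1 (60.2%, where 9.21% of all genes were called higher), 9 after removal of the length and GC trend, 0 with unmoderated variances (45 higher and 0 lower at an unadjusted p under 0.05) and 0 to 9 when a library was left out. Of the other pathway genes 8 were called, 15 at a threshold of 0.1, 0 with unmoderated variances (16 higher and 1 lower unadjusted) and 0 to 5 without a library. Over all genes 941 were called, 2317 at a threshold of 0.1, 0 with unmoderated variances (1144 higher and 1074 lower unadjusted) and 0 to 1790 without a library. Fits without a library assume that the lone library of its group varies like the other group. Replicate numbers are shared between the groups, but nothing in the labels pairs them, and the correlation of same-numbered deviations was -0.094. With a replicate block 5 members (5.68%), 3 other pathway genes and 684 of all genes were called, 3.01% of all genes being called higher. Removal of the length and GC trend lowered the medians to 0.53 for complex I, 0.50 for complex III, 0.49 for complex IV and 0.22 for complex V. Without 1 library the median ran from 0.53 to 0.72 for complex I and from 0.24 to 0.50 for complex V. Causes of these shifts were not tested. *Ndufab1*, *Ndufa5*, *Cox5a*, *Cox6a1* and *Cox7c* were called in each of the 7 alternative fits that kept all 4 libraries and moderated variances. For 50 named members, 600 results under alternatives gave 481 on the same side of the threshold, 101 that lost a call, 18 that gained a call (16 of them at the threshold of 0.1) and 0 that reversed a call. Depth limits could not be assessed.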
